A study of Mus musculus with 5 samples.

Results

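Immediate early genes are transcribed within minutes of a stimulus without new protein synthesis, and stress response genes are induced by heat, damage or misfolded protein. The group described here holds 32 such genes, chosen by symbol, and the identifiers of all 32 were found among the 19127 genes of the deposited expression table. It covers the AP-1 transcription factors with related bZIP proteins, the Egr, Klf and Nr4a families, the Ier genes, dual-specificity phosphatases, factors of mRNA decay, chaperones and stress adaptors.

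RNA was sequenced from cells sorted from mouse blood on Ly6G, a surface marker of neutrophils, with 2 libraries of genotype BMALf/f x Mrp8Cre (numbers 2 and 3) and 3 of genotype CXCR4f/f x Mrp8Cre (numbers 1, 2 and 3). The floxed genes encode BMAL1 (gene symbol Arntl), which with CLOCK drives circadian transcription, and CXCR4, a chemokine receptor that retains neutrophils in bone marrow. All donors were male, 7 to 10 weeks old and kept under specific-pathogen-free conditions, and all samples were taken at Zeitgeber time 13. In both genotypes the Mrp8 promoter, used in neutrophils and their marrow precursors, drives Cre, and no group without a floxed gene was analysed here. The contributions of the 2 genotypes to a difference cannot be told apart. The labels do not tie libraries to separate animals, and p-values therefore reflect only library-to-library spread, which may be technical. Values of each group are given in the order of the library numbers.

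In most cells a stimulus reaches many of the immediate early genes, such as Fos and Egr1, through MAP kinases. These activate factors already bound at the promoters, among them SRF with its partners and CREB. The first products, such as FOS, JUN and EGR1, are transcription factors that switch on later genes, while DUSP1 removes phosphate from the MAP kinases and ZFP36 destabilises AU-rich mRNAs, so the response is short. Many of the transcripts are themselves short-lived, and in leukocytes they are known to respond to adhesion, to inflammatory stimuli and to handling such as cell isolation.

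The shallowest library was Cxcr4-labelled 1 with 356872 recovered reads and the deepest was Cxcr4-labelled 3 with 9101826, and a detection floor of 3 reads equals 6.46 normalised counts in Cxcr4-labelled library 1 and at most 0.902 in the other 4. Of the targeted genes, Arntl had 4.81 and 27.6 normalised counts in the Bmal1-labelled group, against 15.1, 1.90 and 1.05 in the Cxcr4-labelled group. These values rest on 16 and 123 reads, against 7, 9 and 9. The level of Arntl was thus not lower throughout the group of its own label, and counts per gene do not show which exons were read. Cxcr4 had 399 and 128 against 15.1, 72.2 and 4.80, without overlap. The labelled cell type was checked against marker genes. Together, 16 neutrophil core genes took up 1.16% and 0.785% of the Bmal1-labelled columns, against 2.23%, 0.517% and 0.0417% of the Cxcr4-labelled ones. Of these, S100a9 ranked 12 and 23 by abundance in the Bmal1-labelled libraries, against 7, 24 and 1363 in the Cxcr4-labelled ones. Csf3r ranked 16 and 37, against 55, 242 and 4233. Ly6g itself was low throughout, with 21 and 23 reads against 14, 0 and 9. The 0 in Cxcr4-labelled library 2 allows up to 0.633 normalised counts. The 10 pan-endothelial genes were all detected in all libraries and took up 0.495% and 0.692%, against 0.557%, 0.866% and 1.14%. B cell genes stayed at or below 0.00252% and T and NK cell genes at or below 0.00192%, with Ncr1 at 0 in all libraries. Kdr, the main endothelial VEGF receptor, ranked 105 and 14 by abundance in the Bmal1-labelled libraries, against 30, 39 and 9 in the Cxcr4-labelled ones. Stab2, another endothelial gene, had 121 and 4096 normalised counts, against 1124, 140 and 5907, and was highest in library 3 of each group. Pecam1 (615 and 440, against 443, 1378 and 673) and Cdh5 (1467 and 1064, against 1141, 2617 and 1655) were instead higher in library 2 than in library 3 of each group. Several of the genes described below are also known in endothelium. In such bulk RNA, fewer cells of a type and less RNA per cell cannot be told apart, and how far the marker levels account for any difference below was not tested. The groups are named by their labels throughout.

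The promoters of the 5 genes with the highest mean normalised count, not scaled by length, among those whose groups did not overlap are shown to let a reader see which response elements lie near their starts. Each holds 250 bases before and 50 bases after the RefSeq start on GRCm38.p6, read 5′ to 3′ on the gene's strand. For Dusp1 and Zfp36 the longer GENCODE span given further on includes this start, and for Junb and Btg1 this start lies shortly before that span. They lie at chr17:26508423-26508722 on the minus strand (Dusp1), chr12:85473640-85473939 on the plus strand (Fos), chr7:28379179-28379478 on the minus strand (Zfp36), chr8:84978699-84978998 on the minus strand (Junb) and chr10:96616751-96617050 on the plus strand (Btg1). Capitals mark matches on either strand to the CArG box bound by SRF (CC, 6 bases of A or T, GG), the cyclic AMP response element TGACGTCA or its core TGACG, the E-box CACGTG bound by BMAL1 with CLOCK, or the TATA box TATAAA.
Dusp1: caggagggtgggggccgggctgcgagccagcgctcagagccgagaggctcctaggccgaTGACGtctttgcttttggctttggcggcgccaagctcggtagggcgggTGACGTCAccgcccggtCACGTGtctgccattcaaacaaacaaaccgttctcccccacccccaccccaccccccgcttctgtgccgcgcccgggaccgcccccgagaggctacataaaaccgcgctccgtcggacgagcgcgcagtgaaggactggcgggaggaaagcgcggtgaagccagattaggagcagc
Fos: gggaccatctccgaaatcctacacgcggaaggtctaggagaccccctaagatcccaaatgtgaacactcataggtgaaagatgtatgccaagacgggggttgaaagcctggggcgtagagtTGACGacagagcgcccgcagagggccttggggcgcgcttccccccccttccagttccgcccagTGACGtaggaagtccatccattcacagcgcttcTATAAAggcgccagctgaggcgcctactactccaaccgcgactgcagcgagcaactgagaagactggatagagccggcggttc
Zfp36: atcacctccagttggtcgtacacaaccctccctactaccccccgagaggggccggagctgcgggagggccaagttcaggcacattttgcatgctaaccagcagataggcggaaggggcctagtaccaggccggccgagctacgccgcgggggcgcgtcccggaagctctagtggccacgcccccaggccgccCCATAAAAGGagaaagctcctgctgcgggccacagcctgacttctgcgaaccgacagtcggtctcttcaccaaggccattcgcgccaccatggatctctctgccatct
Junb: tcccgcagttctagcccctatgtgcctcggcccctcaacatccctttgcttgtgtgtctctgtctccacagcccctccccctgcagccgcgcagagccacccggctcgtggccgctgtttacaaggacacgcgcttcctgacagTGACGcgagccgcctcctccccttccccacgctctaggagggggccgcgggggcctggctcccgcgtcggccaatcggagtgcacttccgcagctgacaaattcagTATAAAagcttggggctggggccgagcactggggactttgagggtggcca
Btg1: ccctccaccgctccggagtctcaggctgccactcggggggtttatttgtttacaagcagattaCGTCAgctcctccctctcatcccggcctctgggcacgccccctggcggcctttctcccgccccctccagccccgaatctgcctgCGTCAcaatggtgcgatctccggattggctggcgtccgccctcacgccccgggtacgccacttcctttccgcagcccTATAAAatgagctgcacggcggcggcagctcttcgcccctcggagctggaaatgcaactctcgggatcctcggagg

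RefSeq promoters were matched for 28 of the 32 genes. The core TGACG was found in the promoter of 17 of these 28 genes, against 23.0% of all 27025 genes with a promoter, and it includes matches within the full element. The full TGACGTCA stood in 4 of them (Maff, Dusp1, Btg2 and Ppp1r15a), against 2.03% of all genes. CArG boxes were found within this window in 2 genes (Egr2 and Zfp36), against 1.81%. Sequence more than 250 bases before a start was not searched, so boxes further upstream would be missed. E-boxes were found in 7 genes (Maff, Egr2, Klf4, Klf6, Dusp1, Dusp2 and Gadd45b), against 8.09%, and the TATAAA sequence in 6, against 15.7%. The EGR site GCGTGGGCG was found in Maff alone, against 0.707% of all genes. None of the 28 held TGANTCA (AP-1, 8.97% of all genes), the heat shock element (GAA, any 2 bases, TTC, any 2 bases, GAA, 0.662%) or AAAGGTCA (Nr4a, 1.70%) in this window, which says only that these letters are absent there. The TATAAA of Junb lies at bases 0 to 5 from its RefSeq start, not upstream of it. A match describes the sequence and does not show a site that is bound.

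Values below are the deposited normalised read counts. A difference is the mean log2(value + 1) of the Bmal1-labelled group less that of the Cxcr4-labelled group, with its standard error (SE) from limma, which was fitted across 14632 genes with a mean of at least 1 CPM. Of the 32 genes, 31 passed this filter. Egr3 did not, with 1 read in Cxcr4-labelled library 2 and 0 in the other 4 libraries.

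Higher levels in the Bmal1-labelled libraries were common among the 31 genes, but none passed the adjusted threshold. The groups did not overlap for 10 genes, all higher in the Bmal1-labelled libraries: Fos, Fosb, Junb, Jund, Egr2, Ier5, Dusp1, Zfp36, Btg1 and Hspa1a. Over all genes tested, 13.6% were higher without overlap and 5.22% lower without overlap. Differences were above 0 for 23 of the 31 genes, against 55.2% of all genes tested by limma, and their median was 0.69, against 0.11 over all genes. edgeR and DESeq2 also put 23 of the 31 above 0, against 46.6% and 45.9% of all genes. limma called 0 of the 31 at an adjusted p under 0.05 (0% of all genes in either direction, lowest adjusted p 0.9999). Of the 31, 7 had an unadjusted p under 0.05 with a higher level, against 3.68% of all genes, and 0 with a lower level, against 0.499%. The quasi-likelihood test of edgeR also called 0 (0% of all genes), with 5 higher and 0 lower at an unadjusted p under 0.05, against 2.44% and 1.14% of all genes. DESeq2 called 0 of the 31, against 0.0342% of all genes higher and 0.0547% lower, with 6 higher and 0 lower at an unadjusted p under 0.05, against 2.27% and 2.39%.

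The libraries left out in turn moved these counts. Without Cxcr4-labelled library 2, 18 genes were higher without overlap and 0 lower (21.3% and 9.3% of all genes), and without Bmal1-labelled library 3 there were 18 higher and 1 lower (23.9% and 15.8% of all genes). Without Cxcr4-labelled library 3 there were 10 higher and 2 lower (22.8% and 9.62%). There were 10 higher and 2 lower without Bmal1-labelled library 2 (22.9% and 11.2%), and 11 higher and 4 lower without Cxcr4-labelled library 1 (23.8% and 19.2%). The median difference without Bmal1-labelled library 2 was 0.30, against 0.18 over all genes, a gap of 0.12 in place of 0.59 with all libraries. In that fit 0 of the 31 had an unadjusted p under 0.05 by limma, against 292 of 14362 genes. Without Cxcr4-labelled library 1 there were 11, against 1542 of 14432 genes, and without Cxcr4-labelled library 3 there were 4, against 567 of 14714. With Cxcr4-labelled libraries 1 and 3 both left out, a setting added after the data were seen, 12 genes were higher and 10 lower without overlap, against 40.8% and 37.2% of all genes, and the median difference was 0.025, against 0.13 over all genes. Taken singly, Cxcr4-labelled library 1 was below both Bmal1-labelled libraries for 22 genes, library 2 for 12 and library 3 for 23, against 46.1%, 40.8% and 39.2% of all genes tested.

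**Figure D1:**
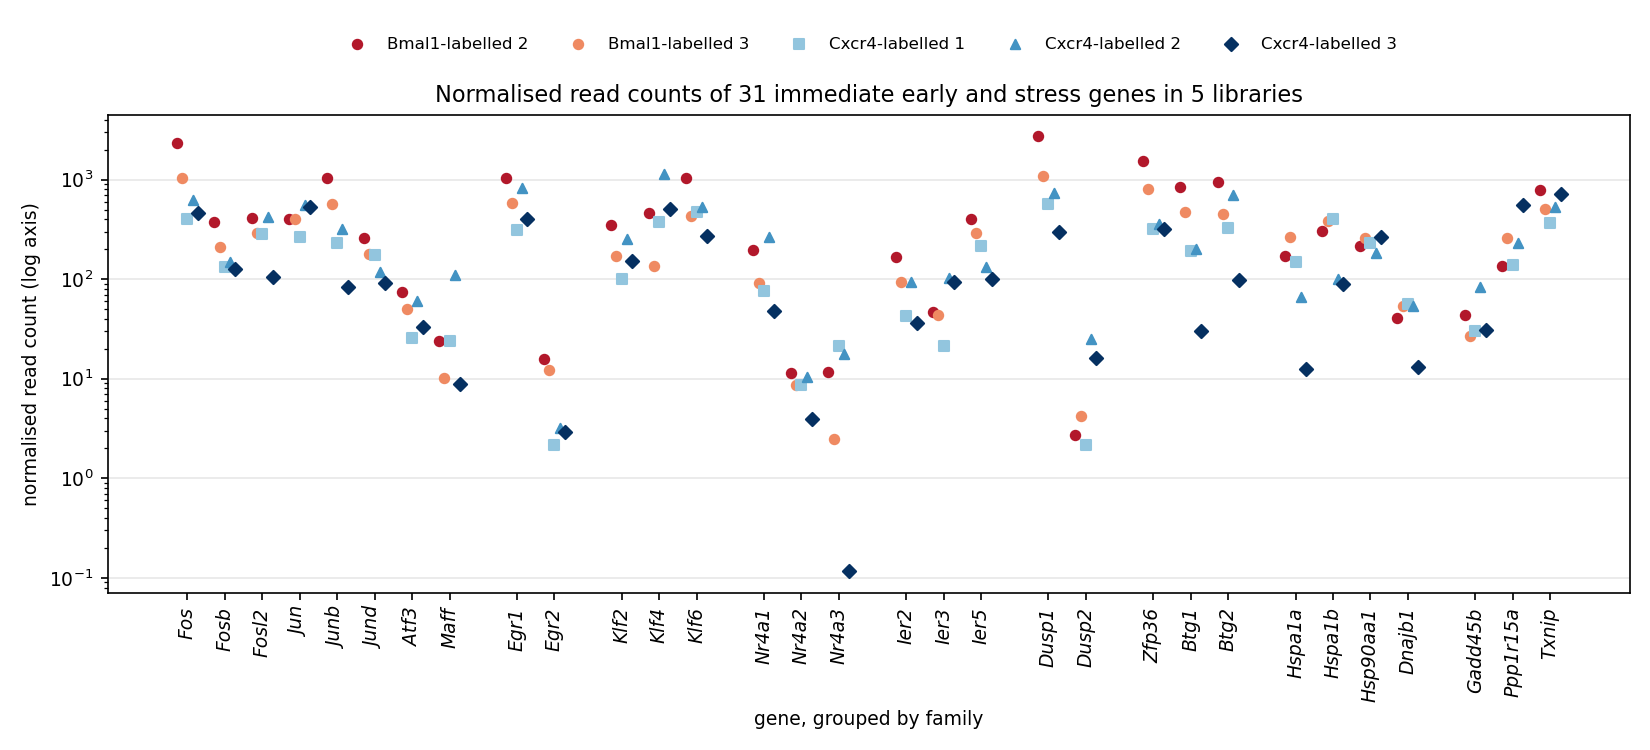
Normalised read counts (log axis) of the 31 tested genes, grouped by family, with a point for each library. Fos, Junb, Dusp1, Zfp36 and Btg1 have both Bmal1-labelled points above all 3 Cxcr4-labelled points, while Klf4 and Maff are highest in Cxcr4-labelled library 2.

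Per kilobase of merged exon, and averaged over the 5 libraries, the most abundant of these genes was Fos, at 412 normalised counts per kb, followed by Dusp1 (325), Junb (195), Zfp36 (193), Txnip (187) and Btg2 (185). At the other end were Dusp2 (5.04), Nr4a2 (2.12), Egr2 (2.12) and Nr4a3 (1.79). As a class the 31 genes were compact. Their median span on the genome was 4235 bases with 3 separate exon blocks, against 21337 bases and 9 blocks over all genes tested, and 17 of the 31 spanned under 5000 bases, against 16.8% of all.

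AP-1 proteins bind DNA as dimers of a FOS and a JUN family member. Fos (ENSMUSG00000021250, chromosome 12, 85473890 to 85477273, plus strand, GRCm38) had 2314 and 1037 normalised counts in the Bmal1-labelled group, against 403, 623 and 464 in the Cxcr4-labelled group. Its lowest Bmal1-labelled value thus lay above its highest Cxcr4-labelled value, and the difference was 1.66 (SE 0.56, limma unadjusted p 0.0166, adjusted p 0.9999). Fosb, which dimerises in the same way, had 377 and 211 against 131, 148 and 127. Here the Cxcr4-labelled libraries lay close together and below both others, with a difference of 1.06 (SE 0.46, limma unadjusted p 0.0490). Fosl2, a later-induced FOS relative, had 410.4 and 289 against 282, 425 and 106. The groups overlapped, and Cxcr4-labelled library 2 stood highest and library 3 lowest.

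Among the JUN partners, Junb (ENSMUSG00000052837, chromosome 8, 84974484 to 84978718, minus strand), which restrains JUN at many promoters, had 1042 and 568 normalised counts in the Bmal1-labelled group, against 228, 316 and 84.1 in the Cxcr4-labelled group. The groups were apart, and the difference was 2.07 (SE 0.64, limma unadjusted p 0.0115). Jun itself had 404 and 401, against 267, 559 and 527. Both Bmal1-labelled values lay inside the Cxcr4-labelled range, and the difference was -0.089, with a 95% confidence interval from -1.25 to 1.07. Jund, the most constitutive of the 3 JUN genes, had 258 and 179 against 177, 118 and 91.2. These groups were separated only by the small gap between Bmal1-labelled library 3 and Cxcr4-labelled library 1, with a difference of 0.79 (SE 0.48).

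The related bZIP factors gave no separation. Atf3, induced by many stresses and a repressor of inflammatory genes, had 74.3 and 49.8 normalised counts in the Bmal1-labelled group, against 25.8, 59.7 and 33.3. Maff, a small MAF protein without an activation domain, had 24.1 and 10.1 against 23.7, 111 and 8.78. Cxcr4-labelled library 2 was the highest for Maff by a wide margin, and the other 4 libraries overlapped. Over the 8 AP-1 and related genes, 6 differences were above 0 and 4 genes were higher without overlap, against 55.2% and 13.6% of all genes.

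EGR proteins are zinc finger factors of the first wave. Egr1 had 1045 and 578 normalised counts in the Bmal1-labelled group, against 310.0, 831 and 405 in the Cxcr4-labelled group. Cxcr4-labelled library 2 lay between both Bmal1-labelled libraries, and the difference was 0.72 (SE 0.59). Egr2, which restrains activation in lymphocytes and marks some macrophage states, was low, with 52 and 54 reads (15.6 and 12.1 normalised counts) against 1, 15 and 25 reads (2.15, 3.17 and 2.93). The groups did not overlap, with a difference of 1.99 (SE 0.90, limma unadjusted p 0.0562). The single read in Cxcr4-labelled library 1 is under the floor of 3 reads, which equals 6.46 normalised counts there and is below both Bmal1-labelled values.

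Of the KLF factors, KLF2 and KLF4 maintain quiescence and barrier state, and both are also the classical flow-induced factors of endothelium. Klf4 had 461 and 135 normalised counts in the Bmal1-labelled group, against 375, 1149.7 and 503. Cxcr4-labelled library 2 was highest and Bmal1-labelled library 3 lowest, with a difference of -1.26 (SE 0.69, limma unadjusted p 0.105). Klf2 had 350.2 and 170.0 against 101, 253 and 153. Klf6, linked to inflammatory macrophages and injury, had 1033 and 429 against 471, 526 and 273. For both genes Bmal1-labelled library 2 stood highest and library 3 lay within the Cxcr4-labelled range. Pan-endothelial genes, at 0.866% of the column in Cxcr4-labelled library 2 and 1.14% in library 3, were higher in these libraries than in the other 3. Their part in the Klf values was not tested.

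The Nr4a genes encode orphan nuclear receptors induced by cyclic AMP and antigen receptor signals. Nr4a1 had 197 and 92.2 normalised counts in the Bmal1-labelled group, against 75.3, 267 and 47.8, with the highest and the lowest value both in the Cxcr4-labelled group. Nr4a2 and Nr4a3 were near the lower end, at 3.98 to 11.4 and 0.117 to 21.5 normalised counts over the 5 libraries. For all 3 the groups overlapped, and their differences lay between -0.23 and 0.44.

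Among the Ier genes, Ier5, a regulator that promotes dephosphorylation of heat shock factor 1, had 404 and 293 normalised counts in the Bmal1-labelled group, against 213, 133 and 101. These groups were apart, with a difference of 1.27 (SE 0.49, limma unadjusted p 0.0316). Ier2, a small nuclear protein, had 167 and 93.1 against 43.1, 94.2 and 36.0. Only Cxcr4-labelled library 2 reached the Bmal1-labelled range, and the difference was 1.23 (SE 0.58). Ier3, which affects survival and ERK signalling, had 47.2 and 43.9 against 21.5, 102 and 92.6, so that the Bmal1-labelled values lay inside the Cxcr4-labelled range.

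Of the dual-specificity phosphatases, Dusp1 (ENSMUSG00000024190, chromosome 17, 26505590 to 26562128, minus strand), the phosphatase that inactivates p38 and JNK, had 2713 and 1078 normalised counts in the Bmal1-labelled group, against 568, 728 and 298. The groups were apart, with a difference of 1.78 (SE 0.63, limma unadjusted p 0.0222). Dusp2, a nuclear phosphatase of lymphoid and myeloid cells, was low, with 2.71 and 4.26 against 2.15, 25.3 and 16.04. Its value in Cxcr4-labelled library 1 is a single read.

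Zfp36 (ENSMUSG00000044786, chromosome 7, 28376784 to 28380253, minus strand), which encodes tristetraprolin, had 1538 and 810 normalised counts in the Bmal1-labelled group, against 321, 357 and 319.9 in the Cxcr4-labelled group. The Cxcr4-labelled values were nearly equal, and both Bmal1-labelled values lay above them. The difference was 1.75 (SE 0.49), with the lowest unadjusted p of the 31 genes by limma (0.00711, adjusted p 0.9999), edgeR (0.00946, adjusted p 0.996) and DESeq2 (0.000983, adjusted p 0.326). It ran from 1.28 to 2.21 when each library was left out in turn.

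Btg1 (ENSMUSG00000036478, chromosome 10, 96617006 to 96622809, plus strand) and Btg2 encode antiproliferative proteins that recruit the deadenylase complex to mRNA, and BTG1 is linked to quiescence. Btg1 had 843 and 469 normalised counts in the Bmal1-labelled group, against 194, 202 and 30.4. This was the largest difference of the 31 genes, at 2.55 (SE 0.82, limma unadjusted p 0.0140), and it was 1.66 without Cxcr4-labelled library 3, the lowest. Btg2 had 946 and 456 against 327, 705 and 97.2, and the groups overlapped through Cxcr4-labelled library 2. Core neutrophil genes were lowest in Cxcr4-labelled library 3, which also held the lowest value of Btg1, Btg2 and Junb. Their part in these values was not tested.

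**Figure D2:**
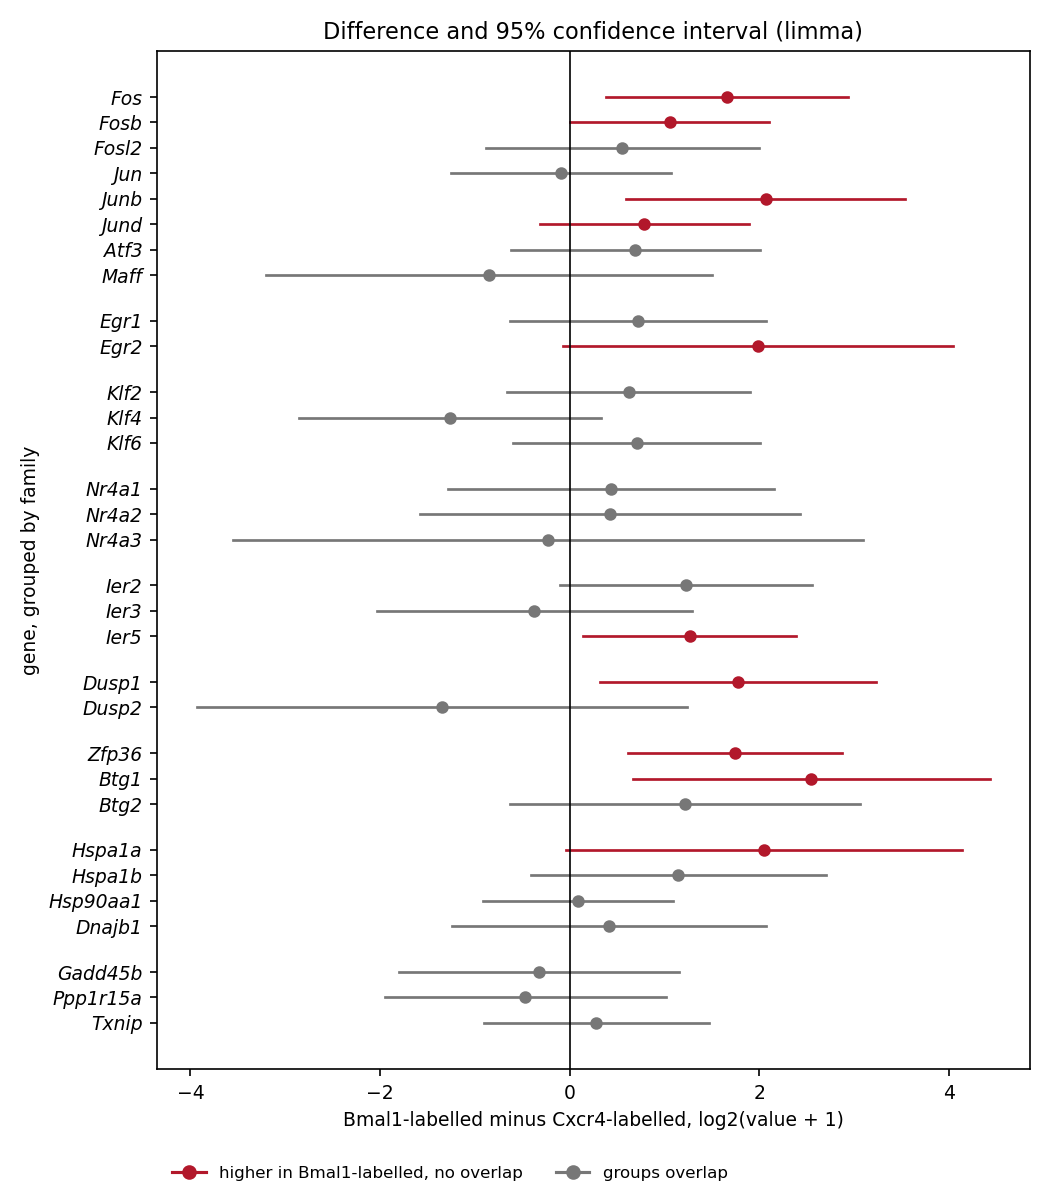
Difference (Bmal1-labelled minus Cxcr4-labelled, log2(value + 1), points) and its 95% confidence interval from limma (lines) for the 31 genes by family, coloured where the groups did not overlap. The intervals of Fos, Fosb, Junb, Ier5, Dusp1, Zfp36 and Btg1 lie above 0 before adjustment over 14632 genes.

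All 4 chaperones were higher in Bmal1-labelled library 3 than in library 2. All 4 were also higher in Cxcr4-labelled library 1 than in library 2, for Dnajb1 only narrowly (56.0 against 54.3). Otherwise they shared no order of libraries. Hspa1a and Hspa1b, neighbours on chromosome 17 that both encode the inducible 70-type heat shock protein, have coding sequences that are 99.4% identical (1915 of 1926 aligned bases), so reads could be split between them and each value is uncertain. Hspa1a had 169.9 and 265 normalised counts in the Bmal1-labelled group, against 149, 66.3 and 12.5, and Hspa1b had 304 and 385 against 400.4, 101 and 89.9. Summed, the pair had 474 and 650.3, against 549, 167 and 102, and the groups overlapped through Cxcr4-labelled library 1. The 8 erythroid genes of the table were also higher in these 3 libraries, at 0.348% and 0.256% of the Bmal1-labelled columns, against 0.288%, 0.00893% and 0.0172% of the Cxcr4-labelled ones, and their part in the chaperone values was not tested. Hsp90aa1, the inducible cytosolic HSP90, had 216 and 262 against 232, 183 and 264, with a difference of 0.088 and an interval from -0.92 to 1.09. Dnajb1, the co-chaperone that delivers clients to HSP70, had 40.3 and 53.4 against 56.0, 54.3 and 13.2. It overlapped between the groups, with Cxcr4-labelled library 3 lowest.

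The stress adaptors did not separate the groups. Gadd45b, which links damage and cytokine signals to MAP kinases, had 43.3 and 26.7 normalised counts in the Bmal1-labelled group, against 30.1, 84.2 and 30.8. Ppp1r15a (GADD34), the phosphatase subunit that restores translation after stress, had 135 and 259.9 against 138, 231 and 549. Txnip, an inhibitor of thioredoxin that responds to glucose, had 794 and 506 against 368, 533 and 720.3. Cxcr4-labelled library 2 was highest for Gadd45b and library 3 for Ppp1r15a, and all 3 genes overlapped.

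**Figure D3:**
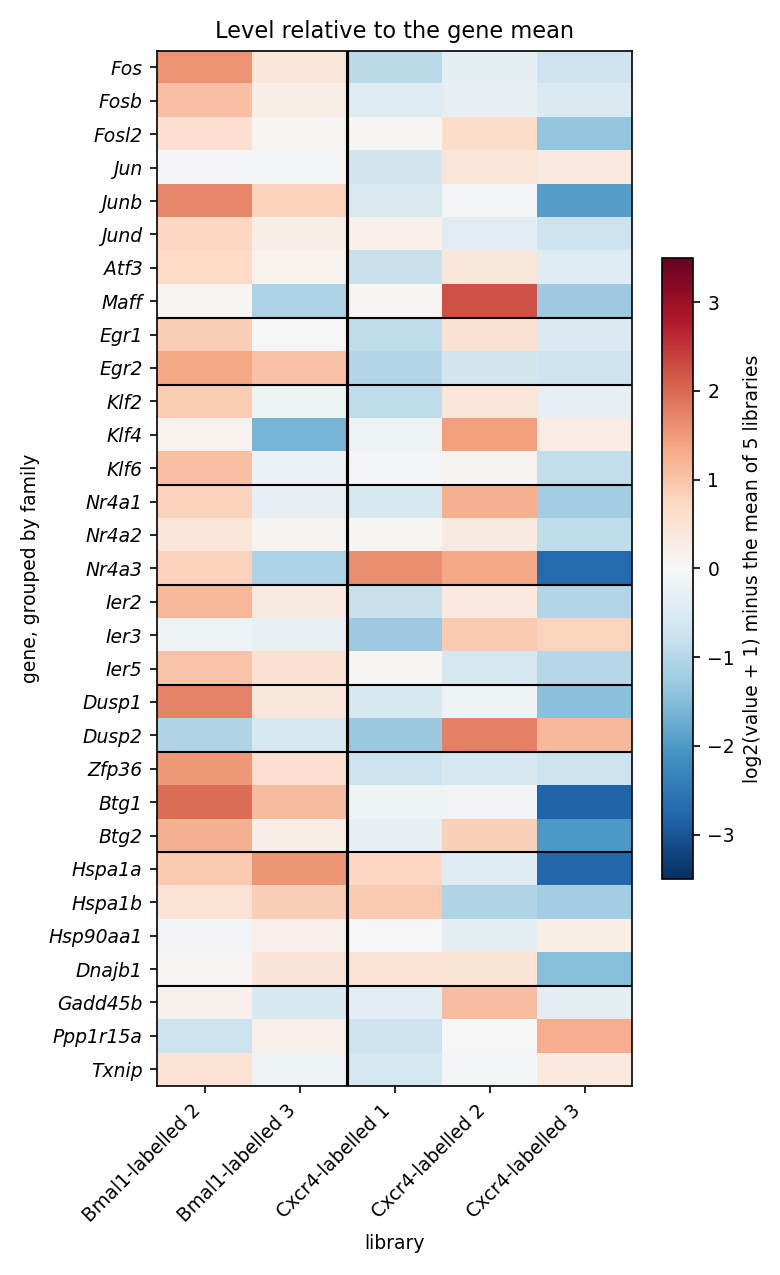
Level of each of the 31 genes in each library, as log2(value + 1) minus the gene's mean over 5 libraries (colour, red higher), with lines between families and between groups. Bmal1-labelled library 2 is red for most transcription factors and decay factors, and Hspa1a and Hspa1b are higher in Bmal1-labelled library 3 than in library 2.

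The genes also differed within the Bmal1-labelled group. Library 2 was above library 3 for 25 of the 31 genes, against 47.9% of all genes tested, with a median ratio of 1.62, against 0.989 over all genes. All 8 AP-1 and related genes, both tested Egr genes and all of the Klf, Nr4a and Ier genes and decay factors were higher in library 2. The 4 chaperones were lower there, with ratios from 0.640 to 0.826, as were Dusp2 (0.635) and Ppp1r15a (0.521). Each library is a single sample, so no test was made of this order.

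Within the Cxcr4-labelled group, library 2 was above library 3 for 28 of the 31 genes, against 46.9% of all genes tested, with Hsp90aa1, Ppp1r15a and Txnip as the exceptions. Library 2 was the highest of all 5 libraries for 8 genes (Fosl2, Jun, Maff, Klf4, Nr4a1, Ier3, Dusp2 and Gadd45b), or 25.8%, a share like the 25.4% of all genes tested. Library 3 was the lowest of all for 18 genes, or 58.1%, against 20.1% of all genes. Cxcr4-labelled library 1, the shallowest, was above both Bmal1-labelled libraries for 3 genes (Hspa1b, Dnajb1 and Nr4a3), against 22.3% of all genes tested. Nr4a3 and Dnajb1 rest there on 10 and 26 reads. In both groups most of the 31 genes were thus higher in library 2 than in library 3. Of the endothelial genes, Kdr and Stab2 ran the other way in both groups, whereas Pecam1 and Cdh5 ran the same way in both. The part of endothelial RNA in this order was not tested.

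**Figure D4:**
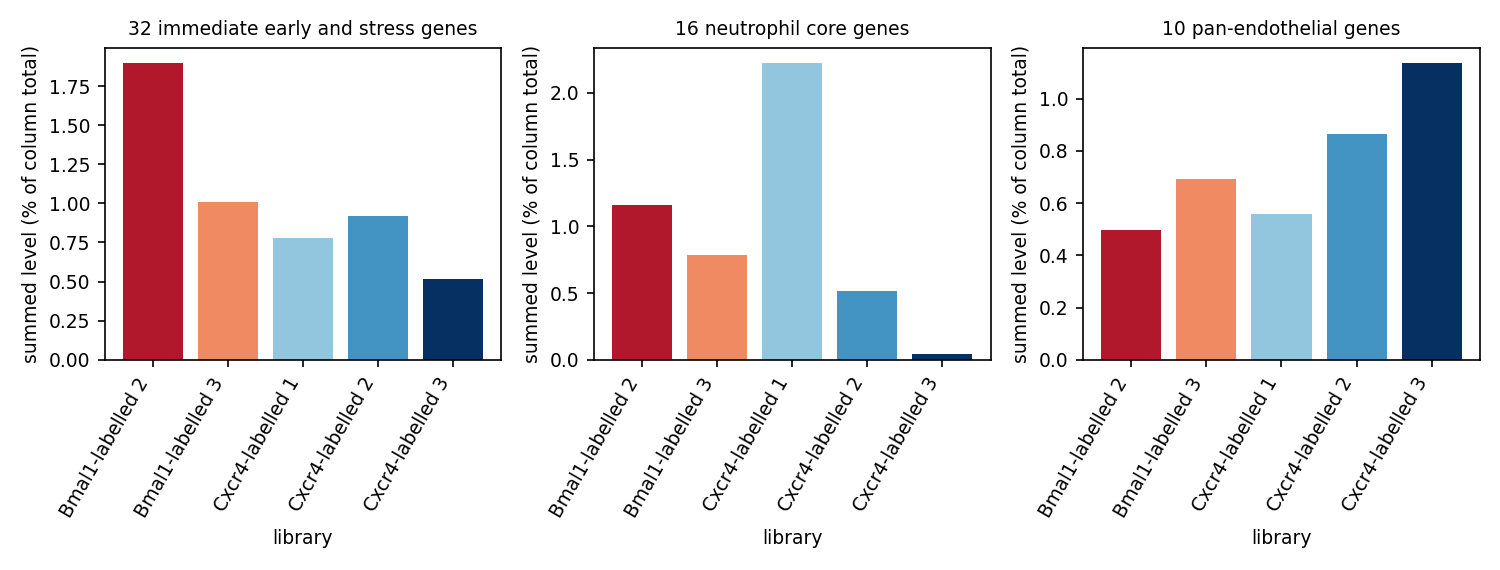
Summed level, as a percentage of the column total, of the 32 immediate early and stress genes, of 16 neutrophil core genes and of 10 pan-endothelial genes in each library (1 bar per library). The 32 genes take up 1.90% and 1.01% of the Bmal1-labelled columns, against 0.776%, 0.919% and 0.516% of the Cxcr4-labelled ones. Cxcr4-labelled library 1 aside, the libraries rank as they do for the neutrophil core genes and in the reverse order for the pan-endothelial genes. A link to either marker set was not tested.

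All 32 genes together took up 1.90% and 1.01% of the Bmal1-labelled columns, against 0.776%, 0.919% and 0.516% in the Cxcr4-labelled group. By family, sums did not overlap for the AP-1 genes (0.568% and 0.301%, against 0.200%, 0.241% and 0.135%), the Ier genes (0.0717% and 0.0472%, against 0.0361%, 0.0336% and 0.0216%), the phosphatases (0.315% and 0.119%, against 0.0743%, 0.0768% and 0.0294%) and the decay factors (0.386% and 0.191%, against 0.110%, 0.129% and 0.0420%). The sums of the Egr, Klf and Nr4a genes, chaperones and stress adaptors overlapped. A sum is set mostly by its most abundant gene, which was Dusp1 for the phosphatases in all 5 libraries. The sums without overlap count again genes already listed as not overlapping, and no share over all genes was computed for sums. Jun, Maff, Ier3 and Dusp2 belong to these families and had differences below 0.

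Another 63 genes of the same families and of the upstream pathway were listed by family, and 60 of them were found in the table and tested. Differences were above 0 for 36 of the 60 and below 0 for 24, against 55.2% of all genes above 0, with a median of 0.080, against 0.11 over all genes. The groups did not overlap for 9, of which 7 were higher and 2 lower, against 13.6% and 5.22% of all genes, so these counts were near or below the background. limma called 0 of the 60 at an adjusted p under 0.05, with 2 higher and 1 lower at an unadjusted p under 0.05, against 3.68% and 0.499% of all genes. edgeR called 0, with 1 higher and 1 lower (2.44% and 1.14%), and DESeq2 called 0, with 3 higher and 1 lower (2.27% and 2.39%). These shares were also near the background.

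The lowest unadjusted p values among those with higher levels included those of Arrdc3 and Hspa8. Arrdc3, an arrestin relative of Txnip that guides receptor sorting, had 342 and 269.7 normalised counts in the Bmal1-labelled group, against 99.0, 114 and 76.5. The groups were far apart relative to their spread, with a difference of 1.66 (SE 0.44, limma unadjusted p 0.00529, adjusted p 0.9999). Hspa8, the constitutive relative of the Hspa1 pair, had 1238 and 1333 against 439, 327 and 856. The groups were separated, with a difference of 1.37 (SE 0.56).

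Klf9 had the lowest unadjusted p among the lower ones. It encodes a glucocorticoid-responsive repressor with circadian expression in several tissues, and had 86.3 and 66.6 normalised counts in the Bmal1-labelled group, against 112, 357 and 404. The groups did not overlap, with a difference of -1.73 (SE 0.62, limma unadjusted p 0.0232, adjusted p 0.9999). Fosl1 was low, with 13 and 18 reads in the Bmal1-labelled libraries against 5, 44 and 40. Bag3, a co-chaperone, had 32.5 and 57.9 normalised counts against 38.7, 64.2 and 100.5, and overlapped.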

How the data were processed

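RNA-seq of 5 libraries was analysed from the table of normalised counts (a signal per gene) that the authors deposited. How they normalised it is not given in the sources used here. CASAVA 1.8.2, RSEM 1.2.3, cutadapt and the build GRCm38 were used, per the submitters' processing notes, with no role or order given. Cells were sorted after red cell lysis and their polyadenylated RNA was amplified with a single-cell kit, per the labels' protocols. No source used here gives the annotation, strand setting or filters, so reads of a gene and of an antisense partner cannot be told apart.

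In each column 100% of values were whole multiples, within 0.01 of a read, of the smallest positive value, and reads were recovered by dividing by it. Floors cover counting error only. Symbols were matched for 18847 of 19127 identifiers. GENCODE M21 gave positions, and levels per kb use its merged exon length.

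limma 3.58.1 (R 4.3.3) with an intensity trend was fitted on log2(value + 1) over 14632 genes with a mean of at least 1 CPM, two-sided, with Benjamini-Hochberg adjustment at 0.05 and 3 residual degrees of freedom (prior 5.37). edgeR 4.0.16 and DESeq2 1.42.0 used recovered reads. Fold differences understate those of low genes. The scripts were tested on simulated data.

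All 32 members are named, with per-library values where a group mean exceeded 20, and of the other pathway genes the 3 lowest unadjusted p of each direction, of which 1 is not reported here. Other genes singled out, and Egr2 and Dusp2, were added after their values were seen. Members and lists were chosen with earlier results of these data known. Replicates were not duplicates (chi-square per degree of freedom from 24.0 to 172 within a group). Alternatives were the pseudocount, filter, scaling, variance prior, replicate block, tool and libraries left out.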

Additional observations from a re-analysis of the deposited data

How the results depend on the processing

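Across 19 alternatives, 1 of them added after the data were seen, 561 of 587 recomputed differences of single genes kept their direction and none passed the adjusted threshold. No scaling, pseudocount, filter or variance prior turned a direction. 14 genes were above 0 and 2 (Klf4 and Dusp2) below 0 in every fit that included them. Without 1 library, differences crossed 0 for Fosl2 (-0.0085 to 0.99), Jun (-0.43 to 0.10), Maff (-1.66 to 0.10), Nr4a1 (-0.10 to 1.15), Nr4a3 (-1.63 to 0.71), Ier3 (-1.08 to 0.019), Hsp90aa1 (-0.057 to 0.22), Dnajb1 (-0.24 to 0.76), Gadd45b (-0.66 to 0.15), Ppp1r15a (-0.94 to 0.072) and Txnip (-0.042 to 0.61). With Cxcr4-labelled libraries 1 and 3 left out together, the median over the 31 genes was 0.025, and differences were -0.30 for Fosl2, -0.096 for Egr1, -0.051 for Klf2, -0.98 for Nr4a1, -0.044 for Nr4a2, -0.10 for Btg2 and -0.22 for Dnajb1. Fits that leave 1 library in a group assume that it varies like the other group.

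DESeq2 called 13 genes of the whole table and none of the 31, where limma called 0. The median over all genes was 0.11 with the deposited scaling, -0.027 with quantile normalisation and -0.086 with edgeR, and the median of the 31 genes relative to it was 0.59, 0.71 and 0.71. It was 0.12 without Bmal1-labelled library 2, 0.32 without Cxcr4-labelled library 3 and -0.10 without Cxcr4-labelled libraries 1 and 3. Numbers 2 and 3 are shared between the groups. Deviations from group means correlated at 0.28 for number 2 and 0.39 for number 3 over 14632 genes, and a group of 2 gives the mismatched numbers the same values with the opposite sign. With 2 shared numbers and no label tying them to a litter or day, the libraries were not treated as paired, and a pairing was not settled. With the replicate block, 24 of 31 differences were above 0, Nr4a3 stood at 0.54, and 17 of the 31 had an unadjusted p under 0.05, against 2183 of 14632 genes, with 0 past the adjusted threshold. Depth limits Egr2, Egr3, Nr4a2 and Dusp2, which had 4 reads or fewer in Cxcr4-labelled library 1.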

Other observations

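Ratios of a pair of genes within a library do not depend on how the columns were scaled. The pairs given here were chosen after their values were seen and were not tested. Junb over Jun was 2.58 and 1.42 in the Bmal1-labelled group, against 0.855, 0.566 and 0.160 in the Cxcr4-labelled group. Fos over Fosb was 6.14 and 4.91, against 3.07, 4.21 and 3.66. The ratio of Dusp1 to Klf4 was 5.89 and 7.96, against 1.52, 0.633 and 0.592. For each of these 3 pairs both Bmal1-labelled ratios lay above all 3 Cxcr4-labelled ratios. Zfp36 over Btg2 had its highest ratio (3.29) in Cxcr4-labelled library 3 and overlapped between the groups.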
